A study of Arabidopsis thaliana with 10 samples.

Results

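The set described here holds 79 cDNA probes, of 10816 on the array, whose log ratio between dexamethasone and control signal lay, as a mean of 2 arrays, on the same side of 0 at each of the 4 treated times. On single arrays this did not hold throughout, and 19 of the 79 had at least 1 treated array on the other side. The probes were chosen by their own values. On the 10523 probes measured on all 8 treated arrays, the turned log ratio, which is the difference between the array numbered 1 and the array numbered 2 of a time over 2, had to be at or below -0.15 at each of 4, 8, 10 and 16 h. This was met by 97 probes, and 18 of them were left out because both 0 h arrays, as deposited, lay at least 0.15 from 0 with the same sign. The values are read as log10, which the sources used here do not state, so that -0.15 stands for 1.41-fold.

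The samples were Arabidopsis inflorescences of the genotype ag-1;35S::AG-GR. Those given dexamethasone for 0, 4, 8, 10 or 16 h were each set on one array against others that had a control solution as long. Both samples of an array thus lacked a working AGAMOUS gene and carried AG-GR, a fusion of AGAMOUS with the glucocorticoid receptor, under the 35S promoter, which is active in most plant tissues and not only where AGAMOUS acts. There were 10 arrays, 2 per time. The dexamethasone sample was in channel 1 on the array numbered 1 and in channel 2 on the array numbered 2. Whether the arrays of a time held RNA of separate plants is not given in the labels, so the spread between them may be technical. Plants without the fusion were not analysed here, and an effect of the steroid itself and one of AGAMOUS cannot be told apart.

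The transcription factor AGAMOUS, of the MADS-domain family, gives stamens and carpels their identity and ends the growth of the floral meristem. In ag mutants petals form in place of stamens, and a further flower forms in place of the carpels. A protein fused to this receptor's hormone-binding domain is held in the cytoplasm and enters the nucleus when dexamethasone binds, so that genes whose ratio changes soon after the steroid can be followed by the hour.

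Over all probes, the turned arrays of a treated time correlated at -0.168 to -0.0216, so at no treated time did the pair agree in general once turned. The numerator of the deposited ratios is not stated. The negative side therefore means one and the same direction for all probes and times, but whether it is a lower or a higher transcript level with dexamethasone is unknown. The identifiers are not paired with genes in the files, and 0 of 10816 matched the table of RefSeq gene names, so probes are named by identifier and no role can be given. The check of the tissue on marker genes was not possible for the same reason.

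By the choice of the probes all 79 were displaced at 4 h. The shift at 8 h was larger, and later times stood close to 8 h. The mean over the probes was 0.0478 ± 0.0396 at 0 h (SD, n = 2 arrays, over the 74 probes measured on both). It was -0.205 ± 0.0885 at 4 h (SD, n = 2 arrays), then -0.369 ± 0.0198 at 8 h and -0.332 ± 0.0271 at 10 h, and -0.378 ± 0.160 at 16 h. Over all 10523 probes the median turned ratio lay between -0.00396 and 0.00224 at every time. The mean of the 4 treated times ran from -0.603 to -0.177 over the 79 probes, with a median of -0.298. If the base is 10, the smallest difference was 1.50-fold, the median 1.99-fold and the largest 4.01-fold, and 36 of the 79 reached 2-fold. The share of 2-fold probes depended on the time, with 3 of 79 at 4 h, then 59 at 8 h and 48 at 10 h, and 51 at 16 h.

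**Figure D1:**
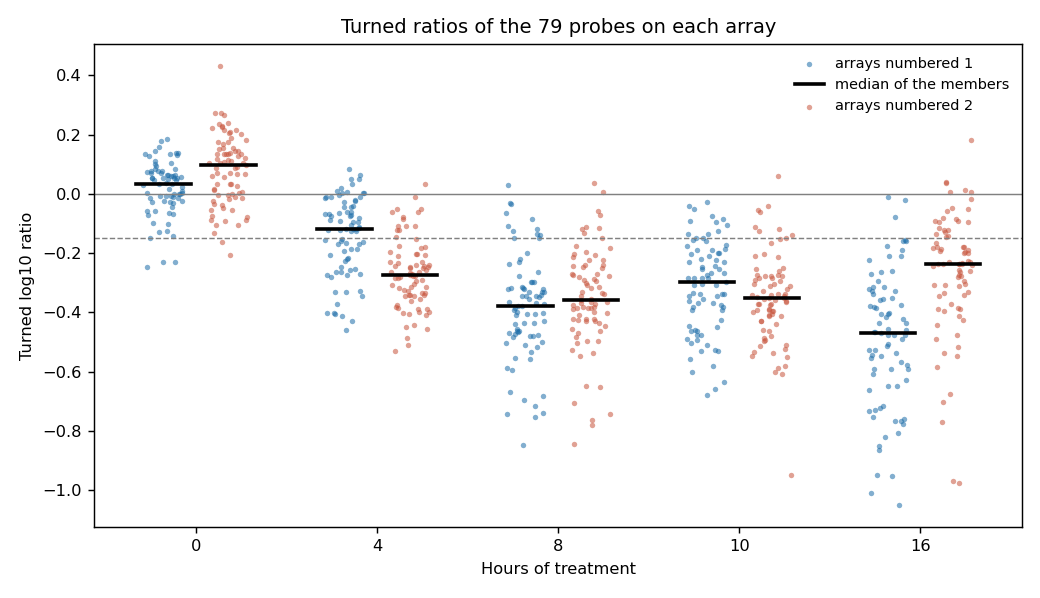
Turned log10 ratio (vertical axis) of each of the 79 probes on every array by hours of treatment (horizontal axis, evenly spaced), with arrays numbered 1 in blue left of arrays numbered 2 in red; bars are medians, the solid line is 0 and the dashed line is the threshold of -0.15. The medians were 0.0340 and 0.0963 at 0 h and lay between -0.470 and -0.119 on the 8 treated arrays.

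These treated values chose the probes and are a description. For the same reason the counts of calls carry no weight of their own. In a limma fit of all probes, 60 of the 79 passed for the mean of the 4 treated times, where 1.24% of all probes passed on the negative side. With the array number as a block, all 79 passed, where 4.32% of all did. Without the block, the count fell to 31 when values at the limits of 2 and -2 were kept, where 60 of 10571 probes passed on the negative side. It was also lower without any single treated array save the second 16 h array. Calls over all probes on the negative side were then fewer as well.

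At single times the fit had few calls. It called 0 of the 79 at 4 h, 8 h and 10 h, where 0% of all probes passed, and 1 at 16 h, GP011D4, where 0.00946% passed on the negative side. At an unadjusted p under 0.05 stood 27 of the 79 at 4 h against 1.5% of all probes on the negative side, 66 at 8 h against 2.28%, 66 at 10 h against 2.7%, and 68 at 16 h against 2.38%. With the block, 0 passed at 4 h where 0% of all passed, and 54 had an unadjusted p under 0.05 on the negative side against 3.82% of all. It called 16 at 8 h where 0.199% of all passed on the negative side, 2 at 10 h where 0.0189% did, and 21 at 16 h where 0.331% did. The 2 at 10 h were GP004H11 and GP004H12, in neighbouring wells.

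**Figure D2:**
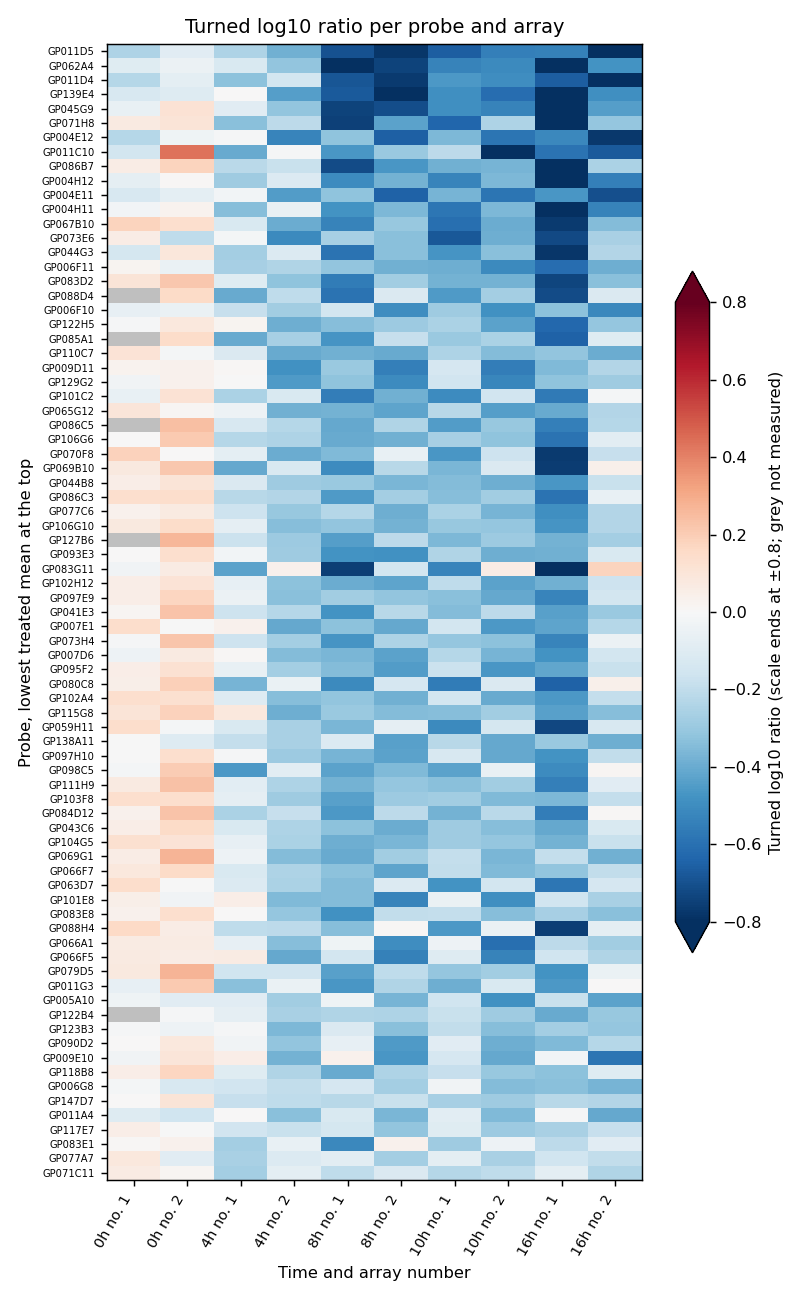
Turned log10 ratio of the 79 probes (rows, lowest mean of the treated times at the top) on the 10 arrays (columns, by hours and array number), in blue below 0 and red above 0, with unmeasured values in grey. The 0 h columns are pale, and 60 of the 79 rows are blue in all 8 treated columns.

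Probe GP011D5 had the lowest mean of all, -0.603, a 4.01-fold difference. Its turned ratios on the arrays numbered 1 and 2 were -0.247 and -0.0887 at 0 h, -0.247 and -0.385 at 4 h, -0.695 and -0.779 at 8 h, -0.659 and -0.547 at 10 h, and -0.538 and -0.975 at 16 h. All 8 treated values were negative, but its first 0 h array stood as low as its first 4 h array. Probe GP011D4, in the well beside it, had -0.229 and -0.0762 at 0 h, -0.326 and -0.147 at 4 h, -0.683 and -0.763 at 8 h, -0.459 and -0.497 at 10 h, and -0.662 and -0.969 at 16 h. The pair stepped down between 4 and 8 h on both arrays and was lowest on the second 16 h array.

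Probes GP062A4, GP139E4 and GP045G9, which lie on different plates, had their lowest mean at 8 h, though on the arrays numbered 1 each was lowest at 16 h. GP062A4 had -0.0998 and -0.0493 at 0 h, -0.124 and -0.313 at 4 h, -0.849 and -0.742 at 8 h, -0.532 and -0.510 at 10 h, and -1.05 and -0.476 at 16 h. GP139E4 had -0.125 and -0.106 at 0 h, 0.00195 and -0.441 at 4 h, -0.669 and -0.845 at 8 h, -0.491 and -0.609 at 10 h, and -0.950 and -0.491 at 16 h. GP045G9 had -0.0564 and 0.117 at 0 h, -0.0884 and -0.316 at 4 h, -0.740 and -0.708 at 8 h, -0.493 and -0.536 at 10 h, and -0.866 and -0.442 at 16 h. At 8 and 10 h the 2 arrays of each probe lay closer together than at 16 h. In each of the 3, both 8 h values lay below both 10 h values. A lowest mean at 8 h, for which the 3 were singled out, favours this, and it was not counted over all probes. At 16 h the first array lay far below the second in each of them, so that their position relative to 8 h was not resolved.

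Probes GP071H8 and GP086B7 had positive ratios on both 0 h arrays and negative ones on all 8 treated arrays. GP071H8 had 0.0716 and 0.104 at 0 h, -0.332 and -0.208 at 4 h, -0.745 and -0.430 at 8 h, -0.634 and -0.249 at 10 h, and -0.953 and -0.310 at 16 h. GP086B7 had 0.0617 and 0.177 at 0 h, -0.217 and -0.178 at 4 h, -0.715 and -0.463 at 8 h, -0.383 and -0.370 at 10 h, and -1.01 and -0.256 at 16 h. In both, the arrays numbered 1 lay below those numbered 2 at all treated times.

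Probe GP011C10 had the least regular course of the 10 lowest. Its ratios were -0.149 and 0.432 at 0 h, -0.402 and -0.0116 at 4 h, -0.464 and -0.294 at 8 h, -0.211 and -0.950 at 10 h, and -0.591 and -0.674 at 16 h. The arrays of 0 h lay on opposite sides of 0, and the 10 h value of -0.580 ± 0.522 (SD, n = 2 arrays) rested on the second array.

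**Figure D3:**
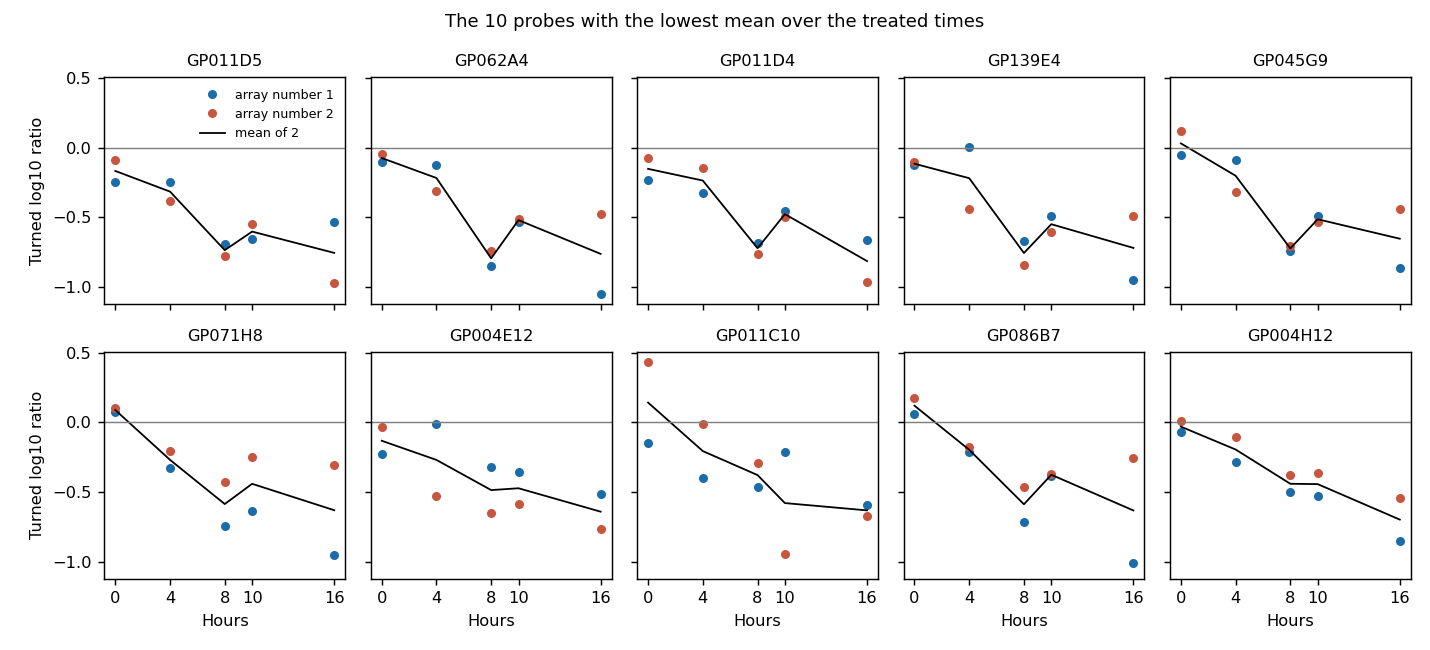
Turned log10 ratio (vertical axis) against hours of treatment (horizontal axis) for the 10 probes with the lowest mean of the treated times, with the array numbered 1 in blue, the array numbered 2 in red and their mean as a line. In 9 of the 10 the mean at 8 h lies between -0.795 and -0.442, and in GP011C10 it is -0.379.

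The lowest time differed among the probes. It was 8 h for 37 probes, 16 h for 33, 10 h for 8 and 4 h for 1, GP077A7, whose 4 treated means all lay between -0.185 and -0.169. The 37 probes lowest at 8 h had means of 0.0675 at 0 h and -0.195 at 4 h, then -0.401 at 8 h and -0.305 at 10 h, and -0.315 at 16 h. That the later times lie nearer 0 than 8 h follows from the grouping. The 33 lowest at 16 h had 0.0252 at 0 h and -0.218 at 4 h, then -0.365 at 8 h and -0.366 at 10 h, and -0.474 at 16 h. They held 22 of the 36 probes of at least 2-fold, against 12 among the 37.

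**Figure D4:**
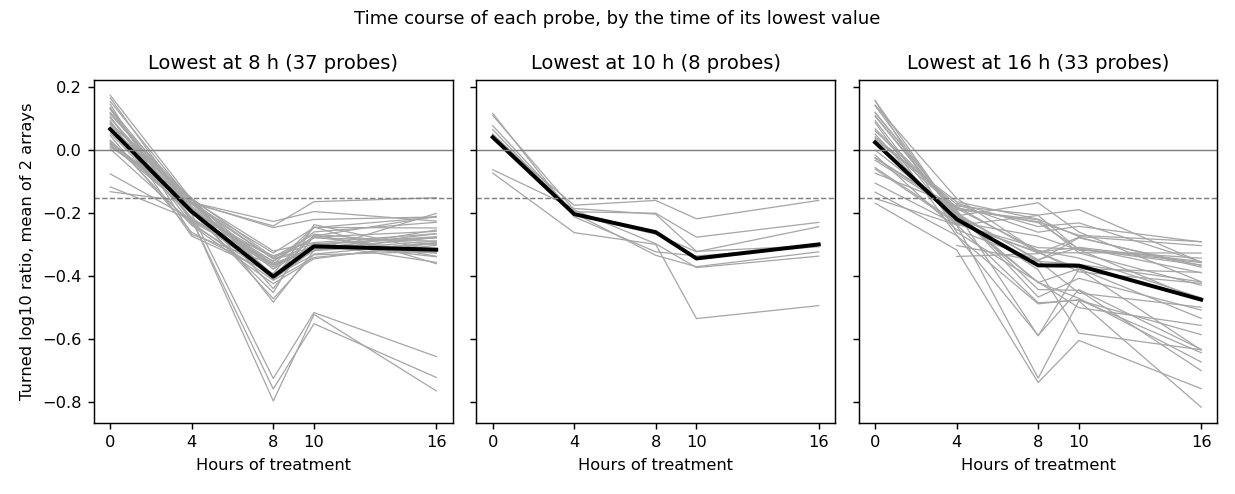
Mean turned log10 ratio of 2 arrays (vertical axis) against hours of treatment (horizontal axis) for each probe (grey) and their mean (black), split by the time of the lowest value, without GP077A7, which was lowest at 4 h; the solid line is 0 and the dashed line -0.15. The mean of the 37 probes lowest at 8 h reaches -0.401 there, and that of the 33 lowest at 16 h reaches -0.474.

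The step between 4 and 8 h was more even over the array numbers than the one between 8 and 16 h. The 8 h mean lay below the 4 h mean for 74 of 79 probes, with 70 of 79 on the arrays numbered 1 and 57 of 79 on those numbered 2. On both numbers at once it was lower for 48 and higher for 0. With arrays scaled to one spread these were 71 on number 1 but 45 on number 2, where the mean over the probes was -0.352 at 8 h and -0.313 at 4 h. The 16 h mean lay below the 4 h mean for 75 probes, 76 on the arrays numbered 1 but only 30 on those numbered 2. Between 8 and 16 h the numbers ran apart, with 60 of 79 probes lower at 16 h on number 1 and 29 of 79 on number 2. The mean over the 79 probes was -0.491 on the first 16 h array and -0.265 on the second, against -0.143 and -0.268 at 4 h. All these times entered the choice of the probes, and the counts of direction were not made over all probes. The median of 8 h minus 4 h was -0.151 over the 79 and 0.00634 over all measured probes.

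By the difference of 16 h minus 4 h, 51 probes were deepening (at or below -0.1), 28 were level and 0 were lessening (at or above 0.1). Of the 51, only 23 were lower at 16 h than at 4 h on both array numbers. The largest was -0.578 in GP011D4, followed by -0.545 in GP062A4, -0.504 in GP004H12 and -0.501 in GP139E4. At the other end stood GP098C5 with 0.0260, GP083E1 with 0.0172, GP071C11 with 0.0153 and GP077A7 with 0.00588. The limma fit called 0 of the 79 for this difference, where 0% of all probes passed, and 8 of 79 had an unadjusted p under 0.05 on the negative side against 0.521% of all. With the block these were 0, and 14 against 1.52%. The deepening count depended on the spread of the arrays: the median absolute deviation over all probes was 0.0929 to 0.106 on treated arrays numbered 1 and 0.0590 to 0.0696 on those numbered 2, and after arrays were scaled to one spread, 26 of 79 were deepening. The part of this spread in the difference was not tested.

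The array numbers weighed on single probes in opposite ways. The mean of the 4 treated arrays lay at or below -0.15 on each number for 61 of 79 probes, on number 1 alone for 9 and on number 2 alone for 9. All 8 treated ratios were negative for 60 of 79 probes, where 3.2% of the 10523 probes had this, and 17 probes had 1 positive value, 1 had 2 and 1 had 3. On all 8 arrays at or below -0.15 were only 8 probes, GP011D5, GP071H8, GP086B7, GP006F11, GP077C6, GP127B6, GP041E3 and GP147D7, and none was at or below -0.3 on all 8. The 4 h arrays were the narrowest gate, with 20 of 79 probes at or below -0.15 on both, against 58 at 8 h, 57 at 10 h and 53 at 16 h. Had the second 4 h array been left out, the rule would have picked 45 probes, 34 of them among the 79.

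**Figure D5:**
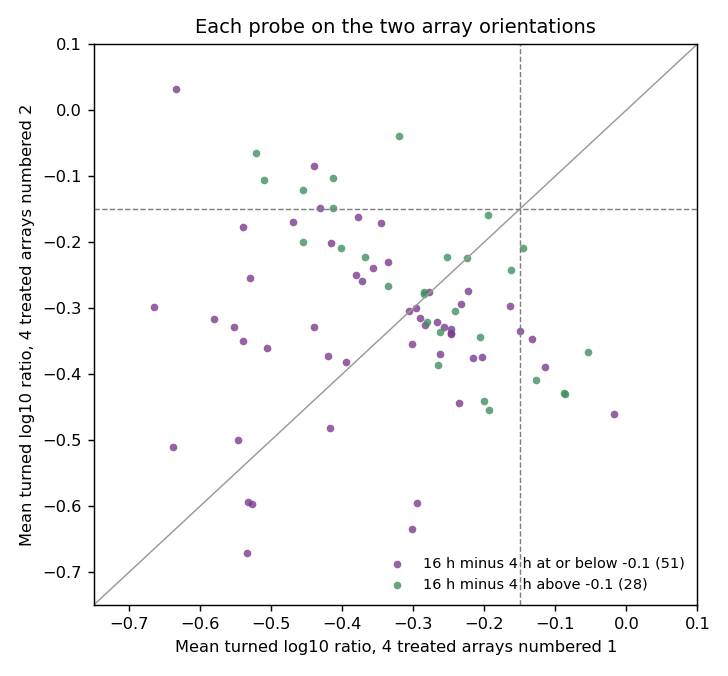
Mean turned log10 ratio of each of the 79 probes over the 4 treated arrays numbered 1 (horizontal axis) and over the 4 numbered 2 (vertical axis), with the line of equal values and dashed lines at -0.15; purple probes had 16 h minus 4 h at or below -0.1 (51), green ones above it (28). In the lower left field lie 61 probes, and 9 lie beyond each dashed line.

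Probe GP147D7 was the most even of the set, with an SD over its 8 treated arrays of 0.0370, where the median SD was 0.167 over the 79 and 0.105 over all measured probes. It had -0.186 and -0.203 at 4 h, -0.221 and -0.177 at 8 h, -0.267 and -0.283 at 10 h, and -0.222 and -0.235 at 16 h, against 0.00139 and 0.104 at 0 h. Its 8 treated values lay within a narrow band below both 0 h values. GP071C11 and GP117E7 followed, with SDs of 0.0759 and 0.0782 and means of -0.177 and -0.202. The even probes thus had small ratios, of 1.50-fold to 1.68-fold.

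Probe GP083G11 was the least even, with an SD of 0.386, followed by GP062A4 with 0.297 and GP011C10 with 0.292. GP083G11 had -0.429, -0.755, -0.531 and -0.821 on the arrays numbered 1 at 4, 8, 10 and 16 h, and 0.0350, -0.148, 0.0600 and 0.181 on those numbered 2. It met the rule through the arrays numbered 1. The reverse held for GP009E10, which had 0.0507, 0.0315, -0.135 and -0.0194 on number 1 and -0.376, -0.468, -0.411 and -0.585 on number 2.

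At 4 h the lowest probe was GP085A1, at -0.337 ± 0.0961 (SD, n = 2 arrays), with -0.405 and -0.269. Its means at the later times stayed near this, with -0.328 ± 0.204 at 8 h and -0.276 ± 0.0291 at 10 h, and -0.371 ± 0.391 at 16 h. GP011D5 followed at -0.316 ± 0.0971, GP088D4 at -0.302 ± 0.140 with -0.401 and -0.203, and GP098C5 at -0.272 ± 0.264 with -0.459 and -0.0852. In GP098C5 the arrays numbered 2 stood near 0 at 10 and 16 h, at -0.0618 and 0.0133, and the arrays numbered 1 did not, at -0.427 and -0.506.

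The 4 probes nearest the threshold from inside had their highest treated mean at -0.1502 in GP083E1, -0.151 in GP101E8, -0.152 in GP115G8 and -0.153 in GP083E8. Just outside stood GP065B7 at -0.1497, GP082B4 at -0.1494, GP085H10 at -0.149 and GP066B7 at -0.148. The gaps between these 8 values are smaller than the SD of 0.0852 between the 16 h arrays of GP083E1. GP101E8, GP115G8 and GP083E8 were near the border through 4 h, where their first arrays stood at 0.0519, 0.0843 and 0.00325. A threshold of -0.2 kept 35 probes and one of -0.1 gave 174, which held all 79.

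The turned 0 h ratios played no part in the thresholds, and the 0 h step looked only at deposited ratios of one sign. The turned 0 h ratios leaned to the positive side, away from the treated values. Of the 74 probes measured on both 0 h arrays, 57 had a positive turned mean (77.0%), against 47.8% of the 9795 measured probes that also met the 0 h step. Both 0 h arrays were positive for 38 of 74 (51.4%), against 26.2% of the 9795, and both were negative for 12 (16.2%), against 28.6%. The 0 h step removed probes whose turned 0 h arrays have opposite signs by construction. With the 18 left-out probes added back, the turned mean was positive for 68 of 92 (73.9%), against 47.9% of all 9859, and both arrays were positive for 38 of 92 (41.3%), against 26.0%. The displacement was small, with a median of 0.0658 and a range of -0.168 to 0.175. By limma 0 of 74 passed at 0 h, where 0% of 9912 probes passed, and 0 had an unadjusted p under 0.05 where 1.98% of all did. With the block 0 passed where 0% of all passed, and 1 had an unadjusted p under 0.05 where 4.97% did. Other fits had more at an unadjusted p under 0.05. In a limma fit of only the 0 h arrays, whose error does not include the treated arrays, these were 13 of 74 (17.6%), 10 of them positive, against 4.78%. With array weights they were 9.46% against 5.45%, with scaled arrays 8.11% against 5.24%, and with limit values kept 6.33% against 7.14%. None of these fits called any of the probes.

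This lean was not shared by every set picked at the treated times. The 66 probes at or below -0.15 at 8, 10 and 16 h but not at 4 h had a positive turned mean at 0 h in 49 of 65 (75.4%), close to the 79. The 37 probes that met the mirror rule on the positive side had it in 18 of 35 (51.4%). The differences between these sets were not tested. The first 0 h array correlated with the other 9 at -0.0288 to 0.0479 over all probes and held 676 of the values at the limits. On the first array alone 63.5% of the 74 were positive against 52.5% of all, and on the second 71.6% against 45.1%.

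The lowest turned means at 0 h were -0.168 ± 0.112 in GP011D5, -0.153 ± 0.108 in GP011D4 and -0.133 ± 0.138 in GP004E12 (SD, n = 2 arrays each), 3 of the 10 probes lowest at the treated times. The highest were 0.175 ± 0.139 in GP079D5, 0.166 ± 0.151 in GP069G1 and 0.158 ± 0.0804 in GP083D2. GP079D5 had 0.0769 and 0.273 at 0 h, against -0.160 and -0.154 at 4 h, -0.435 and -0.203 at 8 h, -0.308 and -0.277 at 10 h, and -0.477 and -0.0514 at 16 h. On every treated array it lay below both 0 h arrays, as did 50 of the 74 probes, where 3.17% of the 9859 did. Since the probes were chosen for low treated values, this share carries no weight of its own.

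The 5 probes not measured on the first 0 h array all stood at a limit there. That is 6.33% of the 79, against 6.25% of all probes. GP085A1, GP088D4, GP086C5, GP127B6 and GP122B4 are these 5, and for them the 0 h step of the rule could not act.

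The mean of the 2 arrays of a time without turning holds what goes with the channel and not with the sample, and the rule did not use it. Over the treated times it was positive for 40 and negative for 39 of the 79 probes, against 56.2% positive among all. Its median size was 0.0684, against 0.0531 over all measured probes. By limma 0 of the 79 differed from 0 where 9.38% of all probes passed, and 2 had an unadjusted p under 0.05 where 31.1% did. In this fit a turned difference counts as spread, which lowers the number of calls among probes picked for one. With the array number as a block, 9 of the 79 passed (11.4%), 4 positive and 5 negative, where 22.4% of all passed. The block takes out only the mean turned difference over the arrays. Its change from 0 h to the treated times still counts as spread, which can lower the share among the picked probes here too. The difference between these shares was not tested.

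The lowest unturned means were -0.333 (SE 0.0606, limma with block, adjusted p = 0.0097) in GP083G11, -0.228 (SE 0.0659, adjusted p = 0.038) in GP080C8 and -0.202 in GP069B10, which did not pass (adjusted p = 0.071). The highest were 0.221 (SE 0.0489, limma with block, adjusted p = 0.017) in GP009E10, 0.172 in GP066F5, which did not pass (adjusted p = 0.058), and 0.171 (SE 0.0542, adjusted p = 0.0498) in GP066A1. Of the 79 probes, only 2 also lay at or beyond 0.15 on one side at all 4 treated times without turning. Among all probes the unturned rule was met by more, 13 on the negative and 120 on the positive side, than the turned rule, 79 and 37, and which of the 2 combinations holds the treatment rests on the labelled channels.

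The probes lay on 50 of 114 plates as read from the identifiers. Of these, 31 plates held 1 probe, and 19 plates with 2 or more held 48 of the 79. The plates up to GP011 held 17 of the 79 (21.5%), against 10.1% of all probes, a difference that was not tested. The fullest plate, GP011, held 5 of 96. GP004 and GP083 held 4 each. There were 4 pairs of neighbouring wells, GP004E11 with GP004E12, GP004H11 with GP004H12, GP006F10 with GP006F11, and GP011D4 with GP011D5. Whether neighbours carry the same clone, or share material, is not given in the files, so these pairs may not count as separate.

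The pairs on plate GP004 were nearly alike within a pair and differed between pairs. GP004E11 had -0.129 and -0.0791 at 0 h, -0.0225 and -0.449 at 4 h, -0.320 and -0.648 at 8 h, -0.370 and -0.582 at 10 h, and -0.467 and -0.703 at 16 h. GP004E12 had -0.230 and -0.0352 at 0 h, -0.0113 and -0.529 at 4 h, -0.321 and -0.653 at 8 h, -0.360 and -0.587 at 10 h, and -0.515 and -0.769 at 16 h. Both were lower on number 2 at every treated time.

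GP004H11 had -0.0248 and 0.0266 at 0 h, -0.343 and -0.0602 at 4 h, -0.480 and -0.360 at 8 h, -0.581 and -0.357 at 10 h, and -0.807 and -0.536 at 16 h. GP004H12 had -0.0706 and 0.00799 at 0 h, -0.282 and -0.109 at 4 h, -0.502 and -0.381 at 8 h, -0.526 and -0.362 at 10 h, and -0.851 and -0.547 at 16 h. Both were lower on number 1 at every treated time and lowest at 16 h on each number. The median gap over the 10 arrays was 0.0275 for the E pair, 0.0331 for the H pair, 0.0340 for the pair on GP011 and 0.0985 for the pair on GP006, where the median over 9895 pairs of neighbouring wells was 0.0958.

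The pair on GP006 was the one whose members differed as much as neighbours usually did. GP006F11 had 0.0240 and -0.0537 at 0 h, -0.265 and -0.239 at 4 h, -0.314 and -0.386 at 8 h, -0.393 and -0.512 at 10 h, and -0.607 and -0.388 at 16 h. GP006F10 had -0.0635 and -0.0550 at 0 h, -0.187 and -0.279 at 4 h, -0.147 and -0.497 at 8 h, -0.284 and -0.487 at 10 h, and -0.327 and -0.517 at 16 h. Both deepened steadily in their means over the 4 treated times.

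Wells next to the 79 that were not themselves in the set showed little of the shift. Neighbours in the set were left out here, so a small shift is in part fixed by the rule. Their 133 measured probes had a median mean of -0.0135 over the treated times, against 0.000694 over the 10444 measured probes outside the set, and 57.9% of them were negative, against 49.5%. The 18 probes left out at the 0 h step had met the same thresholds, so their low treated values are set by the rule. They lay on 4 plates, 16 of them on GP004 and GP005 with positive deposited ratios on both 0 h arrays. Most of the 16 lay in runs along a plate row, GP004C4 to GP004C9 and GP005D1 to GP005D7, but GP005C3, GP005C12 and GP005E4 did not. The median treated values of the 18 were -0.585 at 4 h, then -0.492 at 8 h and -0.528 at 10 h, and -0.456 at 16 h. By these medians they were lowest at 4 h, where the median of the 79 was nearest 0 among the treated times.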

How the data were processed

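For each probe and array the authors deposited 1 log ratio between the channels. Base and numerator are not stated, and log10 is assumed because the deposited values stop at exactly 2 and -2. No source used here gives the scanner, the dyes or how background and normalization were handled. Between 10128 and 10670 probes were measured per array, and spot intensities are not used here. Precision is limited by the number of arrays.

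Values at exactly 2 or -2 were left out. Arrays numbered 2 changed sign. Models were fitted in limma 3.58.1 (R 4.3.3) with lmFit and eBayes on all 10 arrays, 1 coefficient per time, over probes measured on the arrays compared and on at least 8 arrays. All p-values are two-sided. They were adjusted by Benjamini-Hochberg over all probes tested, with a threshold of 0.05, and the fits were tested on simulated data. Per the labels, the array number gives the channel orientation. For all 10 pairs of times the unturned means had correlations of 0.252 to 0.549, so a part of the ratio stayed with the channel over the times. Fits with the array number as a block, which takes up this part, are therefore given. Whether same-numbered arrays share material is not given in the labels. Descriptions used pandas 2.3.3 and numpy 2.4.6, and plots matplotlib 3.10.9.

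Lists of floral and marker genes could not be run, since probes are not paired with genes. The probes and the lists were chosen with earlier results of these data known. The rule named the 10 lowest by treated mean, the 4 lowest at 4 h, the 4 lowest and 4 highest by 16 h minus 4 h, probes at or below -0.3 on all 8 arrays, the 4 just inside and 4 just outside the threshold, the 3 lowest and 3 highest by the 0 h value, the unturned mean and the SD, and the 3 longest runs of neighbouring wells. All 4 runs were of equal length, so all are given. Probes on all 8 arrays at or below -0.15, the 5 at a limit at 0 h and the group of 3 with the lowest mean at 8 h were singled out after their values were seen. Alternatives were the block, fits of the arrays compared, array weights, scaling, centring, limits kept, other thresholds and leaving out single arrays.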

Additional observations from a re-analysis of the deposited data

Results flagged for a closer look

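The mean of the 79 probes had one sign on both 0 h arrays and the opposite sign on both arrays of each treated time. The treated time minus 0 h was -0.253 at 4 h, then -0.416 at 8 h and -0.380 at 10 h, and -0.426 at 16 h. Both 0 h arrays were positive and both treated arrays negative for 34 probes at 4 h, then 36 at 8 h and 38 at 10 h, and 35 at 16 h, of 74 measured on both 0 h arrays. Both 0 h arrays alone were positive for 38 of the 74 (51.4%), against 26.2% of the 9795 measured probes that also met the 0 h step. The joint counts with a treated time were not made over all probes. The treated sign is fixed by the choice of the probes, and the differences from 0 h were not tested. With 2 arrays per time, no search for outlying arrays was made.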

How the results depend on the processing

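Signal over background is unknown. The probes were kept as chosen except where their number is given. Counts are of the 79 probes, against 60 for the mean of the treated times, 1 at 16 h and 0 elsewhere. The cause of each change was not tested, save where fewer arrays or another threshold changes the count by construction. With limits kept the mean had 31, where 60 of 10571 probes passed on the negative side, and 16 h had 0, where 0 of 10594 did. With the replicate block 8 h had 16, where 21 of 10563 probes passed on the negative side. At 10 h it had 2, where 2 of 10569 did, and at 16 h 21, where 35 of 10567 did. The unturned mean had 9, where 2357 of 10523 passed in either direction. The block changed no other count by over 1.5 times. Fits of only the arrays compared had 0 at 4 h, where 15 of 10587 probes passed on the negative side. They had 8 at 8 h, where 17 of 10563 did, then 20 at 10 h, where 47 of 10569 did. At 16 h they had 15, where 29 of 10567 did. Array weights gave 0 at 16 h, where 0 of 10567 did, and scaled arrays 3, where 3 of 10567 did. The number of probes was 174 at a threshold of -0.1, 35 at -0.2, 8 with both arrays of each time at the threshold and 13 without turning. The mean over probes was 0.113 at 0 h with limits kept, and with scaled arrays -0.318 at 8 h and -0.291 at 10 h. Leaving out 1 array gave 23 to 61 for the mean, 0 to 4 at 8 h, 0 to 4 at 16 h, 0 to 1 for the unturned mean and 0 at 0 h, 4 h, 10 h and for 16 h minus 4 h, and 45 to 102 probes by the rule. Calls over all probes moved too. For the mean, those on the negative side were fewest and most without the same arrays as for the 79. At 8 h and 16 h no probe outside the 79 was called on the negative side. For the unturned mean, fewer of all probes were called than with every array kept. The means over probes without 1 array were 0.0198 to 0.0758 at 0 h and -0.268 to -0.143 at 4 h. They were -0.383 to -0.355 at 8 h, -0.352 to -0.313 at 10 h and -0.491 to -0.265 at 16 h. Of the 23 named probes called for the mean, 11 lost the call under at least 1 of the 15 alternatives. The side of their mean is fixed by the rule.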
